A study of Mus musculus with 23 samples.

Results

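The first of the engineered inversions, Inv1, was compared with wild type in the distal forelimb of the mouse embryo at stage E11.5, for genes of chromosome 1 around Epha4 and in its gene-dense neighbourhood. The members are all 78 rows of the deposited table for this comparison, of 34682 genes named in any table of the series. The groups were 5 wild type and 3 Inv1 libraries, 8 of 23 in the series. Inv1 was made with CRISPR/Cas9 and, per the series' design text, the inverted segments place an enhancer cluster from the domain of Epha4 into a gene-dense region. The labels give the Inv1 genotype only as mutant, name no zygosity or litter, and give the embryonic stem cell line G4 as cell type for the forelimbs of both groups. The table holds the authors' comparison and no value per library, so replicate variation enters only by way of its standard error (SE). Sequencing depth is therefore unknown and no gene can be shown library by library.

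Epha4 encodes a receptor tyrosine kinase for ephrins and is expressed in limb bud mesenchyme. Enhancers act on promoters mainly within the same topologically associating domain, a stretch of chromosome whose parts contact each other more often than they contact the neighbouring stretch. Binding sites of the factor CTCF often mark domain borders, and an inversion that spans a border can bring an enhancer next to promoters it does not normally meet. The comparison asks which genes have a different RNA level in the limb bud once the enhancers lie in the gene-dense region.

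In Inv1, 5 neighbouring genes from Tuba4a to Dnpep and the nearby gene Fam134a had higher RNA levels than in wild type, and Epha4 a lower level. A gene counts as called when its deposited adjusted p, from the authors' Wald test in DESeq2, is under 0.05. By that rule 7 of the 78 listed genes were called, which is 8.97%, with 6 higher (7.69%) and 1 lower (1.28%). The listed genes are the members themselves, so the background outside the list has to be read from the adjustment. Judged by how far the adjustment raised each p in the authors' deposited table, between 0.133% and 0.295% of all genes tested were called, out of about 17996. In bulk tissue, fewer cells of a type and less RNA per cell cannot be told apart. The design text calls the libraries biological replicates without naming litters. The 4 comparisons of an inversion with wild type share the same pooled mean count for the listed genes they have in common. Each p is therefore taken to come from a joint fit of 18 libraries (wild type and the 4 inversions). The column headers do not list those libraries. On that reading each p does not measure the variation among these 8 libraries alone.

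**Figure D1:**
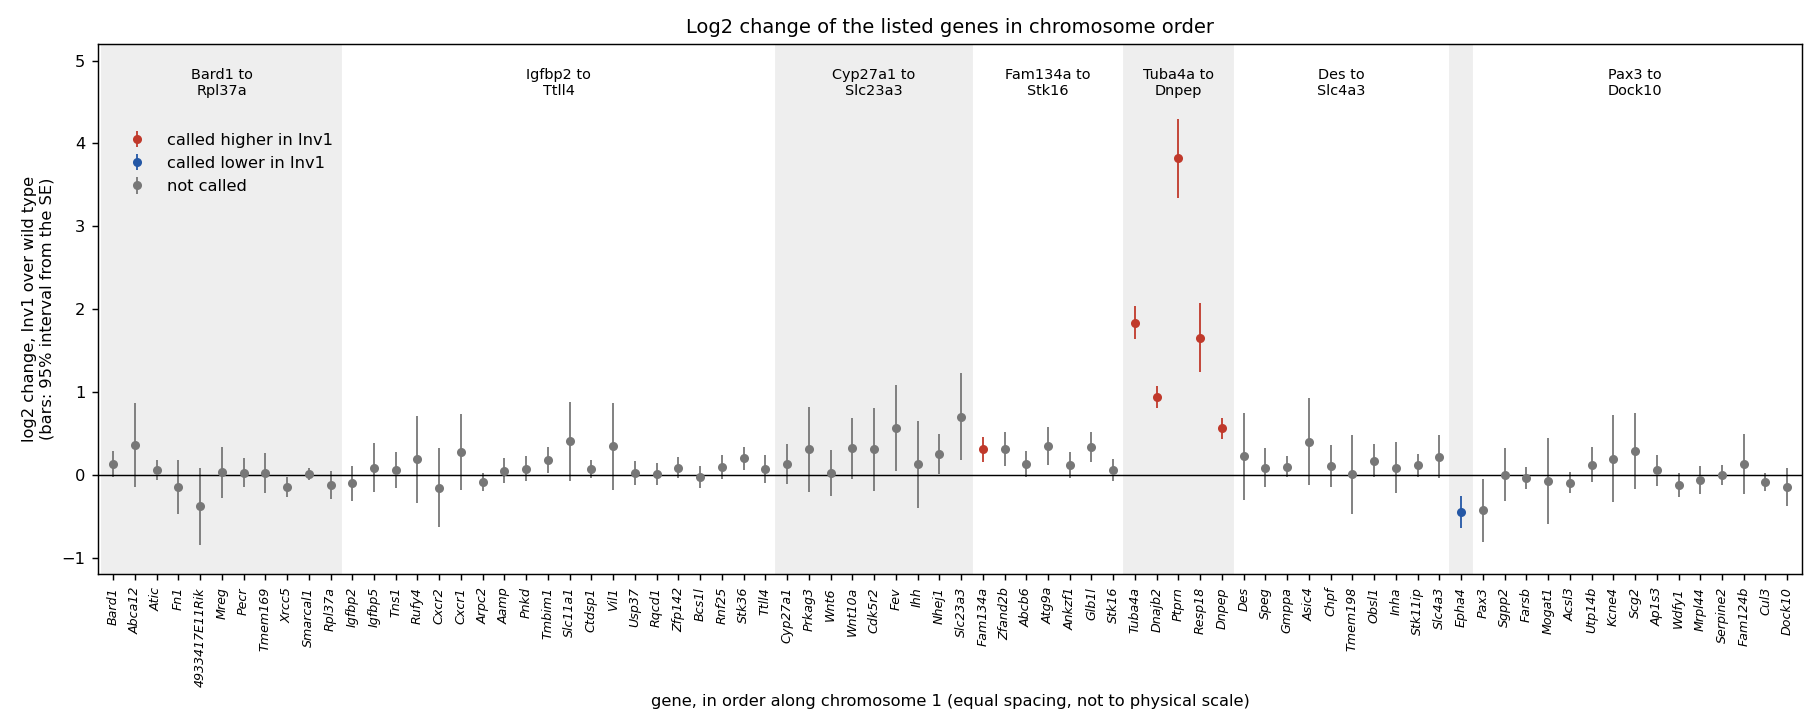
Log2 change of Inv1 over wild type (y axis) for the 78 listed genes in their order along chromosome 1 (x axis, equal spacing), with 95% intervals from the SE. Shading and headings mark intervals of the order, with Epha4 as a strip of its own. Ptprn stands highest at 3.82 inside the run from Tuba4a to Dnpep, and Epha4 is the 1 gene called lower.

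The run of called genes lies between Stk16 and Des. Its members have unlike functions. Tuba4a encodes an alpha-tubulin, a building block of microtubules, and rose 3.58-fold (95% interval 3.12 to 4.10) in the authors' deposited table. Dnajb2, next in order, encodes a J-domain co-chaperone of Hsp70 known from neurons, and rose 1.92-fold (1.75 to 2.11) in the authors' deposited table. Ptprn encodes the catalytically inactive receptor phosphatase IA-2 of dense-core vesicles in neuroendocrine cells. Its rise of 14.1-fold (10.2 to 19.7) in the authors' deposited table was the largest of the list. That interval does not cover a difference between fits described below, which put Ptprn in Inv1 at 374 or at 485 normalised counts. Resp18, a gene of endocrine and neuroendocrine secretory cells, had a log2 change of 1.66 (1.24 to 2.07) in the authors' deposited table. Its pooled mean was only 4.81 normalised counts. A second estimate described below places 84.7% to 132% of the counts of Resp18 over 18 libraries in Inv1. The interval of its log2 change does not cover that estimate, so the size of the rise of Resp18 is uncertain. Dnpep encodes aspartyl aminopeptidase, a broadly expressed cytosolic enzyme, and rose 1.48-fold (1.36 to 1.61) in the authors' deposited table. The SE on the log2 scale was 0.068 for Dnajb2, 0.243 for Ptprn, 0.212 for Resp18 and 0.063 for Dnpep, and the Wald score, the change over its SE, ran from 7.80 (Resp18) to 18.3 (Tuba4a) in the authors' deposited table. The adjusted p in the authors' DESeq2 table ran from 7.47e-71 (Tuba4a) to 1.87e-11 (Resp18).

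The genes on either side of the run were not called. Stk16, a membrane-associated serine/threonine kinase gene directly before Tuba4a, had a log2 change of 0.06 (95% interval -0.07 to 0.19, adjusted p = 0.957) by the authors' deposited table. Des, the intermediate filament gene of muscle directly after Dnpep, had one of 0.23 (-0.30 to 0.75, adjusted p = 0.959) there. The interval of Stk16 thus ends far below that of Tuba4a, which starts at 1.64, while the interval of Des overlaps that of Dnpep (0.44 to 0.69) in the authors' deposited table. Within the run the size of the change did not follow the order: the highest value, that of Ptprn, stood in the middle, and the value of Dnajb2 (0.94) lay between the higher ones of Tuba4a (1.84) and Ptprn in the authors' deposited table. The genes also lie on both strands. Dnajb2 is on the plus strand and Tuba4a, Ptprn, Resp18 and Dnpep are on the minus strand.

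Tuba4a and Stk16 share 1379 bases of annotated exon on opposite strands. The labels do not state stranded counting, so reads in that overlap cannot be assigned with certainty to either gene. Among the 78 genes, 8 pairs overlap in exons, 7 of them on opposite strands. Ankzf1 and Glb1l share 505 bases, and Atg9a and Ankzf1 share 46, while no other gene of the run overlaps a listed gene.

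The sequences before the start sites of the 5 genes are shown with that of Epha4, because they belong to the genes of the run and to the gene called lower. Each is the 150 bases directly before the most 5′ start in the RefSeq promoter table (build GRCm38.p6, not the mm9 build of the authors), written 5′ to 3′ along the gene's own strand. Capitals mark matches on either strand to the letters of the CCAAT box or the GC box, which are spelled out below them; in the window of Dnajb2 the last 2 matches abut.
Tuba4a (chr1:75219295-75219444, minus strand): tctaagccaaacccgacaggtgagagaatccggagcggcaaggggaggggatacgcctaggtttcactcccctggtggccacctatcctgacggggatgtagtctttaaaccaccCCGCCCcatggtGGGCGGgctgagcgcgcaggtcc
Dnajb2 (chr1:75236273-75236422, plus strand): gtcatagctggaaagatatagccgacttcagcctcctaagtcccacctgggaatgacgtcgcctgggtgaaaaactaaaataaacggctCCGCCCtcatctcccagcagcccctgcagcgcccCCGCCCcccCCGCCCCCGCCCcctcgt
Ptprn (chr1:75264209-75264358, minus strand): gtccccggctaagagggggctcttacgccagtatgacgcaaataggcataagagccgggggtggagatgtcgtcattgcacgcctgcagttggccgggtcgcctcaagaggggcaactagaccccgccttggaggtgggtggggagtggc
Resp18 (chr1:75278416-75278565, minus strand): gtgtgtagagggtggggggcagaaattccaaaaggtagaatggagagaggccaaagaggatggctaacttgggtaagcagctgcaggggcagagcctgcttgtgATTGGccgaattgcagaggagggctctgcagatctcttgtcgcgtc
Dnpep (chr1:75317638-75317787, minus strand): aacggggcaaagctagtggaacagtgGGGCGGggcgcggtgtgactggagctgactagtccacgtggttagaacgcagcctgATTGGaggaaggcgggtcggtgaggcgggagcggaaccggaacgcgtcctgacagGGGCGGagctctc
Epha4 (chr1:77515089-77515238, minus strand): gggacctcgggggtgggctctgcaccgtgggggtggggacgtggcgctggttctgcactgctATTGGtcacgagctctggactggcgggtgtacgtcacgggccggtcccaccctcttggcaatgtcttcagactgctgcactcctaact

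None of the 6 windows holds the TATA box, searched as TATAAA, which 7.57% of 32851 RefSeq windows of this length hold. The GC box, searched as GGGCGG, occurs in those of Tuba4a (2 matches), Dnajb2 (4) and Dnpep (2), against 28.6% of all windows. The CCAAT box, searched by those letters, occurs once each in those of Resp18, Dnpep and Epha4, against 24.5% of all. The window of Ptprn, the gene with the largest rise, holds none of these letters. It has 9 CpG dinucleotides and 63.3% GC, and those of Tuba4a (9), Dnajb2 (10), Dnpep (14) and Epha4 (9) are likewise above the median of 4 over all windows. The window of Resp18 is the poorest in CpG of the 6, with 3, and has 55.3% GC. A match is a description of the letters and not evidence of a bound factor.

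The mean counts show how much RNA stood behind each fold. The 18 libraries of the authors' joint fit (wild type and the 4 inversions) give a pooled mean of normalised counts for each gene. The level in each group was rebuilt for 72 genes from that mean and the log2 changes of the 4 tables against wild type, and divided by transcript length where genes are compared. These levels rest on the deposited log2 changes, and for Ptprn the separate fit described below puts the 15 libraries other than Inv1 at a mean of 0.418 (up to 7.96) in place of 22.5. On that basis Ptprn went from 7.45 normalised counts per kb in wild type to 105 in Inv1. That moved it from rank 63 to rank 49 of the 72 genes, so after a rise of that fold it was still below most listed genes per unit length. Tuba4a went from 139 to 498 per kb, from rank 46 to rank 30, and Dnajb2 from 328 to 629, from rank 32 to rank 24. Dnpep, already at 815 per kb in wild type, reached 1204 in Inv1. In absolute terms the gain per kb was highest for Dnpep at 389, followed by Tuba4a at 359 and Dnajb2 at 302, while Ptprn gained only 97.9. Of these 4 genes Ptprn thus had the largest fold and the smallest gain in the joint fit, and Dnpep the smallest fold. The lead of Dnpep over Tuba4a in gain depends on the fit. The separate fit puts Tuba4a in Inv1 at 1548 normalised counts in place of 1414, and Dnpep at 3401 in place of 3410. The order of their gains is therefore not settled.

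**Figure D2:**
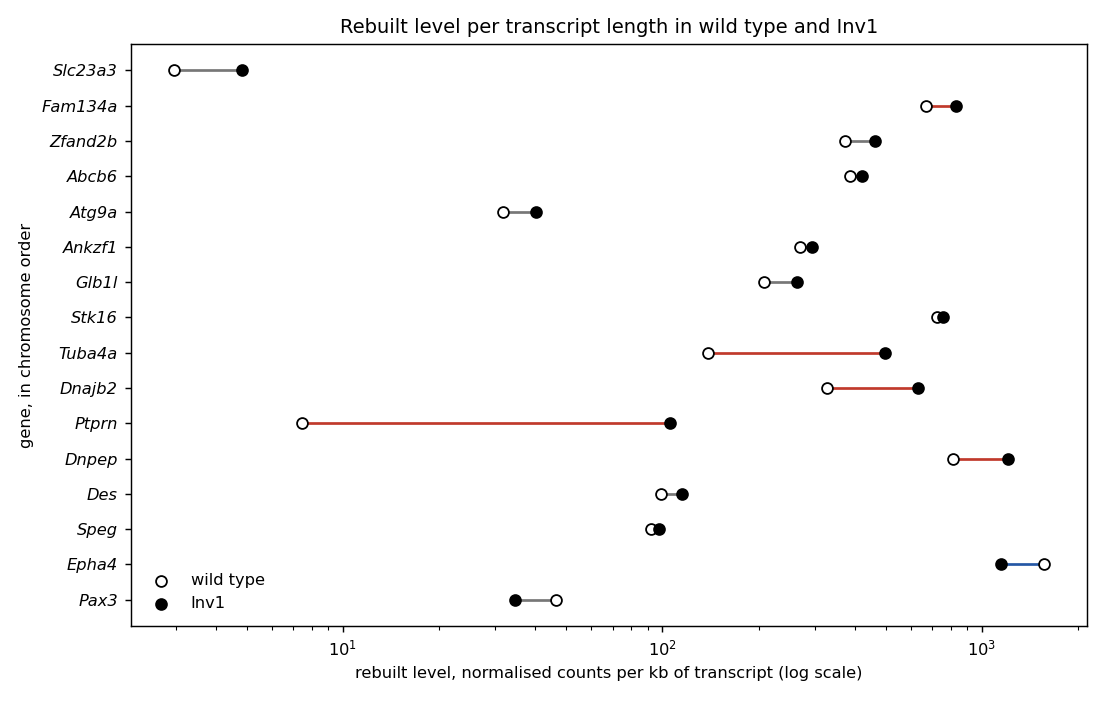
Rebuilt level per kb of transcript (x axis, log scale) in wild type (open) and Inv1 (filled) for genes from Slc23a3 to Speg, Epha4 and Pax3, in chromosome order. The line colour is red for genes called higher, blue for Epha4 and grey for the rest; Ptprn spans 7.45 to 105 and Dnpep 815 to 1204. Resp18 has no rebuilt level, and the level of Ptprn differs in the separate fit.

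A second estimate of the level in Inv1, added after seeing the data, put Ptprn higher than the joint fit did. It gives no wild type level, so it is no estimate of the fold against wild type. The Inv1 libraries also enter a separate fit of 5 libraries with 2 of Inv1DelCTCF, which gives their level without the log2 changes against wild type. Put on the scale of the joint fit by the median ratio over 49 abundant genes (pooled mean 300 or more), that fit places Ptprn in Inv1 at 485 normalised counts (95% interval 447 to 518 from its SE), against 374 from the joint fit. Since all 18 libraries together hold 1461 normalised counts of Ptprn, the 3 Inv1 libraries would hold 99.6% of them (91.8% to 106%), where an equal share is 16.7%. At the lower limit of that interval the other 15 libraries would average 7.96, against 22.5 from the joint fit. For Resp18 the 18 libraries hold only 86.6 normalised counts in all, and the estimate for the Inv1 libraries is 112% of that sum (84.7% to 132%). A share above 100% cannot occur, so the estimate carries error that its SE does not cover, and no fold is given from it.

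These shares rest on both tables counting a gene alike and on the inferred set of libraries in the joint fit. Of the 49 genes, 46 had a ratio within 5% of the median; the exceptions were Tuba4a, Wnt6 and Des. Tuba4a came to 1548 normalised counts in Inv1 against 1414 from the joint fit, a share of 47.7% (45.6% to 49.8%). Dnajb2 held 27.0% and Dnpep 23.8% of their sums in the Inv1 libraries. Epha4, with 13.7%, and Fam134a, with 20.1%, lay on either side of the equal share. For the 44 genes of that set that were not called, the share ran from 10.6% (Wnt6) to 19.9%, with a median of 17.3%. The intervals cover the SE of the separate fit only, and the other 15 libraries include 3 further inversions as well as wild type. Against that mixture Pax3 stood above the equal share in Inv1, with 20.7% (18.2% to 23.0%), although its log2 change against wild type alone was negative, and Des stood at 12.8% (8.95% to 16.7%) although its change was positive.

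**Figure D3:**
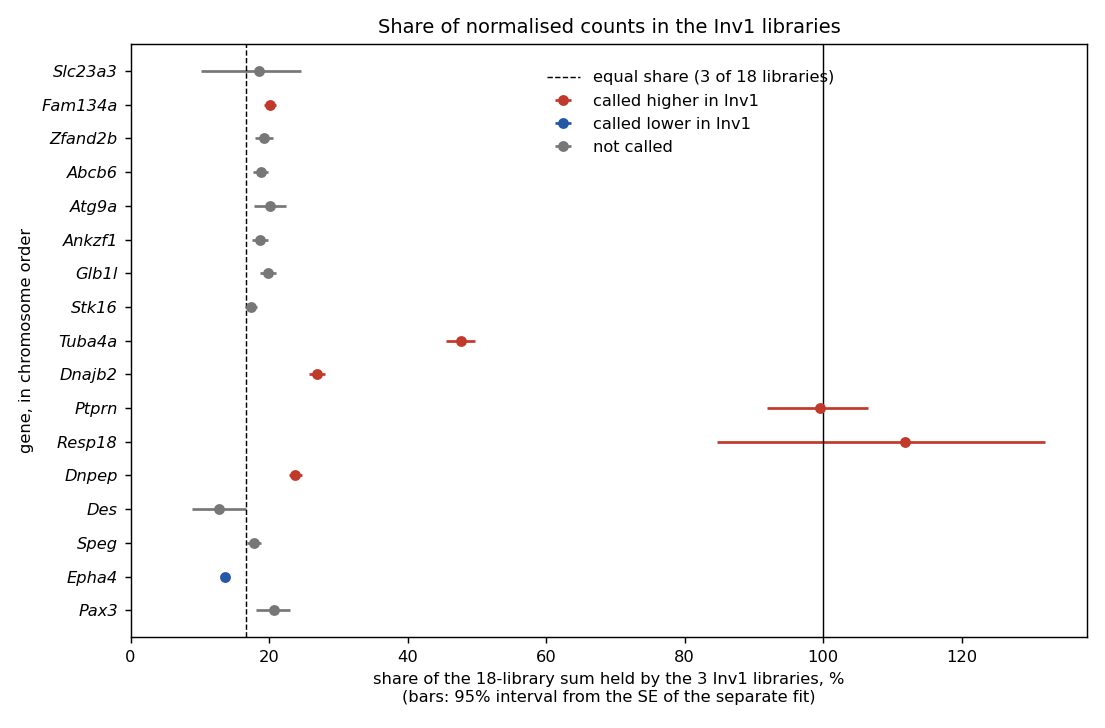
Estimated share of the normalised counts of the 18 libraries that the 3 Inv1 libraries hold (x axis, %), with 95% intervals from the SE of the separate fit, for genes in chromosome order. The dashed line is an equal share of 16.7% and the solid line 100%; Ptprn and Resp18 reach it and Tuba4a stands at 47.7%.

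Epha4 was the 1 gene called lower. Its mean over the 18 libraries was 8914 normalised counts, and its rebuilt level went from 9902 in wild type to 7284 in Inv1. In the authors' deposited table that is 0.736 of the wild type level (95% interval 0.644 to 0.840, adjusted p = 0.00739). Per kb it stood at rank 11 of 72 in wild type and rank 15 in Inv1, so Epha4 was still among the more abundant of the listed transcripts. The call was uncertain in checks on GC content. After a straight line in transcript GC content across the 78 genes was subtracted, the log2 change was -0.33 and no longer met the largest p of a called gene. A line fitted on the 71 uncalled genes gave -0.39 with a Wald p of 6.11e-05, and whether an adjusted p would keep that call was not determined. Centring on the median of the listed genes gave -0.53 and kept the call.

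No listed gene lies between Slc4a3 and Epha4, and Pax3 is the next after it. Pax3, which encodes a paired-box factor of the muscle progenitors that enter the limb, had a log2 change of -0.43 (95% interval -0.81 to -0.04) in the authors' deposited table. That value is nearly that of Epha4, but with an SE of 0.195 against 0.098 it missed the threshold (adjusted p = 0.663). The 15 genes from Pax3 to Dock10 had a median log2 change of -0.04, with 9 negative and 6 positive values and no call. Cul3, a scaffold of ubiquitin ligases, had a log2 change of -0.09 (SE 0.055) in the authors' deposited table, and Acsl3, an acyl-CoA synthetase gene, also -0.09 (SE 0.064). Serpine2, a secreted protease inhibitor, stood at 0.00 (SE 0.059) there. These abundant genes thus allow only small changes in either direction.

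Fam134a stood apart from the run. It encodes a reticulon-like protein of the endoplasmic reticulum and is the first listed gene after Slc23a3, with 6 uncalled genes between it and Tuba4a. It rose 1.24-fold (95% interval 1.12 to 1.37, adjusted p = 0.0299) by the authors' deposited table. Of the calls it had the largest p, and Glb1l came next, on the other side of the threshold (adjusted p = 0.0911). Its call was lost when the log2 changes were centred on the median of the list (0.22) or when the GC line was subtracted (0.17).

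All 7 genes from Fam134a to Stk16 had positive values, with a median of 0.31, against 0.09 over all 78. Glb1l, a beta-galactosidase-like gene, had a log2 change of 0.34 (0.16 to 0.52) in the authors' deposited table. Atg9a, the scramblase that feeds membrane to forming autophagosomes, had 0.35 (0.12 to 0.58, adjusted p = 0.288) and Zfand2b, a proteasome-associated gene, 0.31 (0.11 to 0.52, adjusted p = 0.322) by the authors' deposited table. Abcb6, a porphyrin transporter gene, had 0.13 (SE 0.081) and Ankzf1, a gene of ribosome quality control, 0.12 (SE 0.080) there. Values of a similar size therefore alternated with lower ones along these genes, and 1 of the 7 was called.

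The genes from Cyp27a1 to Slc23a3, which include 3 ligand genes, had no call. All 9 values were positive, with a median of 0.31. In the authors' deposited table Ihh, the hedgehog ligand of growing cartilage, had a log2 change of 0.13 (-0.39 to 0.65) with an adjusted p of 0.978. The ectodermal ligand gene Wnt6 had 0.03 (-0.25 to 0.30) and its neighbour Wnt10a 0.32 (-0.04 to 0.69, adjusted p = 0.831) by the authors' deposited table. Fev, an ETS factor gene of serotonergic neurons, had 0.57 (0.05 to 1.09, adjusted p = 0.680), and Slc23a3, an orphan transporter gene with a mean of 9.40, had 0.70 (0.18 to 1.23, adjusted p = 0.483) by the authors' deposited table. The joint and separate fits disagreed on several of these genes: the level in Inv1 was 3.53 times as high in the joint fit for Fev, 2.90 times for Ihh, 2.27 times for Prkag3, 1.78 times for Wnt6 and 1.55 times for Cdk5r2, against a median of 1.10 over the 49 abundant genes. The cause was not tested. Fev and Slc23a3 were the only uncalled genes whose interval reached a log2 change of 1, and none reached -1. Prkag3, a muscle subunit of AMP-activated kinase, had 0.31 (SE 0.261), Cdk5r2, an activator of Cdk5 in neurons, 0.31 (SE 0.254), Cyp27a1, a sterol hydroxylase gene, 0.13 (SE 0.121) and Nhej1, a factor of DNA end joining, 0.25 (SE 0.124) in the authors' deposited table.

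On the far side of the run, the 10 genes from Des to Slc4a3 had positive values from 0.01 to 0.40 and a median of 0.11. None had an unadjusted p under 0.05. Slc4a3, an anion exchanger gene and the last listed one before Epha4, had a log2 change of 0.22 (-0.04 to 0.48, adjusted p = 0.841) by the authors' deposited table. Obsl1, a cytoskeletal adaptor related to obscurin, had 0.17 (SE 0.101), and Speg, a kinase gene of striated muscle, 0.09 (SE 0.119) in the authors' deposited table. The listed genes nearest to Epha4 on this side thus showed no call although Dnpep, next to Des, had risen.

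Centromeric of Cyp27a1 positive values outnumbered negative ones. The 20 genes from Igfbp2 to Ttll4 had a median of 0.08, with 16 positive and 4 negative values. The 11 from Bard1 to Rpl37a had a median of 0.03, with 7 positive and 4 negative values. Neither interval held a call. Stk36, a kinase gene of the hedgehog and cilia pathways, had 0.20 (0.06 to 0.34, adjusted p = 0.381) by the authors' deposited table. Xrcc5, which encodes the Ku80 subunit of DNA end joining, had -0.14 (-0.26 to -0.03, adjusted p = 0.576) and Tmbim1, a membrane protein gene, 0.18 (0.03 to 0.34, adjusted p = 0.628) there. Smarcal1, a gene for a DNA-annealing helicase, had the smallest SE of the list, 0.039, and a log2 change of 0.01 in the authors' deposited table.

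Taken along the whole order, positive values ran without a break over 34 genes, from Rnf25 to Slc4a3. Their median was 0.22, and that of the 28 uncalled genes among them 0.15. In the 44 genes outside this stretch 26 were positive and the median was 0.03. Over all 78 genes 60 were positive and 18 negative. The stretch was found by looking at the signs, so no test is given for it. GC content moved with it: transcript GC content and log2 change were rank-correlated over the 78 genes (Spearman 0.455) and over the 71 uncalled ones (0.428), which all share libraries. Median GC content was 61.3% from Cyp27a1 to Slc23a3 and 58.9% from Des to Slc4a3, against 49.0% from Bard1 to Rpl37a and 46.3% from Pax3 to Dock10. The part of GC content in the stretch was not tested.

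By mean count the list ran from 2.38 (Cxcr1) to 25891 (Fn1) normalised counts. The SE was level up to a mean of 100 and lower above it, with a median of 0.243 in the 9 genes with a mean under 10, 0.249 in the 12 from 10 to 100, 0.108 in the 23 from 100 to 1000 and 0.074 in the 34 above. The smallest deposited log2 change that would have met the p of Fam134a follows from the median SE. It was about 0.998 under a mean of 10 and 1.02 from 10 to 100. It was 0.45 from 100 to 1000 and 0.31 above 1000. For genes with low counts these values need not equal the true change that could have been detected. Of the 6 rises, 1 (Resp18) had a mean under 10, 1 (Ptprn) one from 10 to 100, 1 (Tuba4a) one from 100 to 1000 and 3 a higher mean, as had Epha4. Log2 change and mean count had a Spearman correlation of -0.42 across genes. All 12 genes with a mean from 10 to 100 were positive, with a median of 0.31, against 0.06 above 1000.

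**Figure D4:**
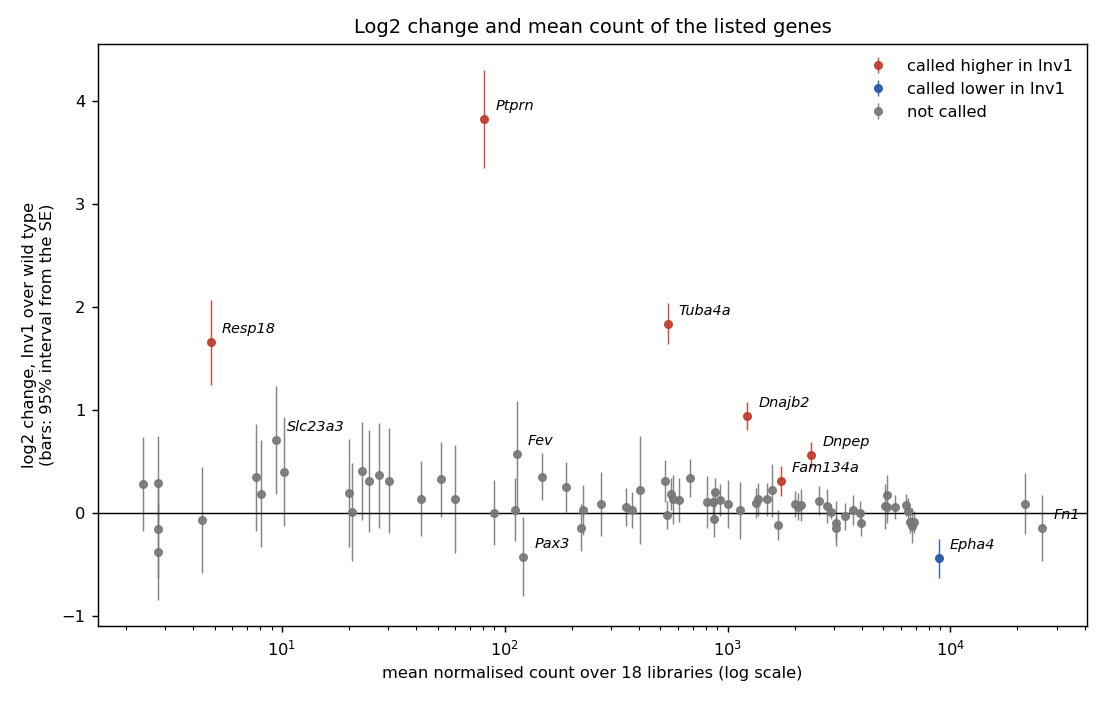
Log2 change of Inv1 over wild type (y axis, 95% intervals from the SE) against the mean normalised count over 18 libraries (x axis, log scale) for the 78 listed genes. Intervals narrow to the right, where Epha4 was called at a log2 change of -0.44, while Slc23a3 at 0.70 and a mean of 9.40 was not called.

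At the ends of the range, Cxcr1, a chemokine receptor gene, had 0.28 (SE 0.234), Scg2, a secretogranin gene with a mean of 2.77, 0.29 (SE 0.234) and the chemokine receptor gene Cxcr2, also with a mean of 2.77, -0.16 (SE 0.243) in the authors' deposited table. Fn1, the fibronectin gene, had -0.15 (SE 0.165), Igfbp5, a carrier of insulin-like growth factors, 0.09 (SE 0.150) at a mean of 21640, and Epha4 had the third highest mean in the authors' deposited table. The SE of Fn1 and Igfbp5 was thus above the median of its class despite the highest counts of the list. Of the 71 uncalled genes, 49 had a 95% interval wholly inside a log2 change of 0.5 in either direction and 69 one inside 1. Whether the authors' fit shrank low-count changes toward 0 is not given in the sources used here. The SE did not exceed 0.268 even at means under 10, and with shrinkage such intervals would be too narrow for low genes.

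Sorted by role instead of position, 4 of 7 groups held a called gene, and Dnpep was in no group. The shares have to be read against 8.97% called over all 78 genes, and 4 of the called members are neighbours in the run from Tuba4a to Dnpep. Of 7 genes assigned by hand to a neuronal and neuroendocrine group 2 rose (Ptprn and Resp18). The other 5, Scg2, Fev, Cdk5r2, Asic4 and Kcne4, were not called, and whether each, such as Kcne4, is particular to those cells was not checked. The 7 had a median of 0.40. Of 6 genes of the cytoskeleton and chaperones 2 rose (Tuba4a and Dnajb2), with a median of 0.21, and Tns1, Arpc2, Vil1 and Ttll4 were not called. Among 4 autophagy and lysosome genes 1 rose (Fam134a), and the list median was 0.35. Among 10 limb signalling and patterning genes 1 fell (Epha4) and none rose, with 5 negative and 5 positive values and a median of 0.01. None of the 4 muscle genes (median 0.20), 4 DNA repair genes (0.07) or 4 genes of ribosome and translation (-0.05) was called. All 78 genes together had a median of 0.09.

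At an unadjusted p under 0.05, 17 of the 78 genes (21.8%) passed, 14 with a positive and 3 with a negative log2 change. Besides the 7 called they were Glb1l, Atg9a, Zfand2b, Stk36, Slc23a3, Tmbim1, Fev and Nhej1 with positive values and Xrcc5 and Pax3 with negative ones. Among those 10 uncalled genes, 6 lie in the intervals from Cyp27a1 to Stk16, 3 centromeric of them, and Pax3 beyond Epha4.

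The tissue label was checked with marker genes in the separate fit, whose means hold the 3 Inv1 libraries but no wild type. All 8 limb mesenchyme markers were present, with Prrx1 highest at 25893 normalised counts. Ectoderm markers summed to 7180 over 6 genes, endothelial ones to 5754 over 3 and macrophage ones to 724 over 3. The 3 embryonic globin genes among 4 blood markers made up a sum of 83586, and Hba-a1 was listed at 0. The 3 neuronal markers ran from 4.64 (Scg2) to 409 (Tubb3). These markers, other than Pax3, Des, Wnt6, Wnt10a and Scg2, have no value against wild type here, so a shift in cell types between Inv1 and wild type was not tested.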

How the data were processed

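RNA of distal forelimbs was compared between 5 wild type and 3 Inv1 libraries. Per the submitters' processing notes the authors used STAR, DESeq2 and build mm9; versions, annotation and filters are not given in the sources used here. Per the file headers the deposited tables give a mean normalised count (a signal pooled over the libraries of a fit), a Wald score, a p-value and adjusted p-value, and a log2 fold change whose SE is also in log2 units. Positive log2 changes were taken as higher in Inv1: group means rebuilt from the 4 tables against wild type fitted the separate table of Inv1DelCTCF with a median absolute residual of 0.012 (log2) over 49 genes under that sign, against 0.107 or more under the others.

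Intervals of 95% are log2 change ± the normal quantile times SE. Levels were rebuilt from the pooled mean, the 4 log2 changes and the library numbers. Order came from RefSeq (GRCm38.p6; 76 symbols matched directly and 2, Fam134a and Rqcd1, by an older symbol), and transcript length and GC content from the longest GENCODE M21 transcript. Promoters were found for 72 genes. Members, lists and naming rule (every called gene, every unadjusted p under 0.05, fixed locus genes, neighbours of called runs, extremes of mean count) were chosen with earlier results of these data known. The calling step was run on 200 simulated tables, with planted changes larger than those of Epha4 and Fam134a. The rebuilding step was checked only by inverting its own formula on simulated group means. That check could not fail and does not cover changes shrunk toward 0. Computation used SciPy 1.17.1, numpy 2.4.6 and pandas 2.3.3 in Python 3.11.15, with figures from matplotlib 3.10.9.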

Additional observations from a re-analysis of the deposited data

How the results depend on the processing

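Of 69 values under alternatives, 54 were classed as unchanged, by direction and side of the threshold or by a move smaller than their error. Counts of 4, 5 or 7 genes called higher in place of 6 were among them, so the class includes settings in which a call was lost. Fam134a was not called at an adjusted p under 0.01, after centring or after the GC line. Adjusted over the rows of the table alone, 10 genes were called higher in place of 6, the additions being Stk36, Zfand2b, Atg9a and Glb1l. With a minimum absolute log2 change of 0.5, 0 genes were called lower. At an unadjusted p under 0.05 there were 3 lower. After a GC line was subtracted, a call required a Wald p of at most 3.99e-05, the largest called p. By that cutoff 0 genes were called lower with either line. Epha4 had a Wald p of 0.000619 after the line of all listed genes. After the line of the uncalled genes it had a Wald p of 6.11e-05. That lies between the largest called p and the smallest uncalled p (0.000269), so whether an adjusted p would keep the call was not determined. Epha4 had a log2 change of -0.33 after the line of all listed genes and -0.39 after a line fitted on the 71 uncalled genes, an alternative chosen after seeing the data. Fam134a had 0.22 when centred, 0.17 after the first line and 0.24 after the second. The 5 genes from Tuba4a to Dnpep were called under each of these 3 alternatives. Their median log2 change of 1.66 was 1.39 at a mean of at least 10, 0.94 at a mean of at least 100 and 1.04 as a mean weighted by the SE, as the low genes Resp18 and Ptprn then drop out or weigh less. The median of 0.31 from Fam134a to Stk16 was 0.20 as a weighted mean. Levels in Inv1 from the separate fit, also added later, were 1548 for Tuba4a and 485 for Ptprn; for Dnajb2, Dnpep, Epha4 and Fam134a they moved within their error. The level in Inv1 from the joint fit ran from 0.849 (Ptprn) to 3.53 (Fev) times that from the separate fit, against a median of 1.10 over 49 abundant genes. No paired analysis was possible because the tables hold no value per library, and for the same reason no library could be left out.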
